A study of Homo sapiens with 15 samples.

Results

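The Rab family of small GTPases was followed in MDA-MB-231 cells, a human triple-negative breast cancer cell line, after 6 h with ZJ-101, a synthetic compound whose structure is a simplified form of superstolide A, a natural product from a marine sponge. Cells in 2D culture received DMSO vehicle or ZJ-101 at 0.5, 5, 50 or 500 nM, with 3 dishes per group and 15 poly-A RNA libraries in all. The time point was chosen by the study to precede the change in cell shape, and the dose series addressed which genes respond before it. Members were all genes whose symbol is RAB, a number and at most 1 letter, whose mean over all 15 libraries reached 10 normalized counts. A normalized count is a read count divided by the size factor of its library. Of 64 such symbols, 49 were members, among 13561 genes that passed the same minimum and 59608 genes listed. The member just inside the minimum was RAB40A, with a mean of 14.7, and the symbols just outside were RAB6B with 9.14 and RAB39A with 8.19. Of the 15 symbols left out, RAB19, RAB25 and RAB39B were at 0 in every one of these 15 libraries.

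Rab proteins are molecular switches that sit on the membranes of the secretory and endocytic pathways, each on its own set of compartments. In the GTP-bound form a Rab recruits effectors, which are the motors, tethers and fusion factors that move, dock and fuse vesicles. Guanine nucleotide exchange factors (GEFs) load GTP and GTPase-activating proteins (GAPs) end the active state. Rab escort proteins (CHM and CHML) present new Rabs for the addition of lipid tails, and GDP dissociation inhibitors such as GDI2 take them off membranes. In epithelial and tumour cells Rabs are best known for the uptake and recycling of adhesion receptors, Golgi transport and the release of secretory vesicles.

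Reads on genes numbered 12415519 to 15284762 per library, with a median of 13320354. In 0.5 nM replicate 2 the reads stood apart from the other replicates of that dose (chi-square per degree of freedom 11.1 and 16.6, against at most 6.27 between replicates elsewhere). Without it, the numbers of Rab genes called were 0, 1, 4 and 15 at 0.5, 5, 50 and 500 nM, against 0, 1, 3 and 13 with it, and the 15 held 14 falls and 1 rise, RAB30. The marker check of the line was mixed. VIM, encoding vimentin, lay between 13433 and 18413 normalized counts and the oestrogen receptor gene ESR1 between 0 and 4.3, while the epithelial genes CDH1 (107 to 206) and EPCAM (266 to 320.2) were low but not near 0. Some of these genes moved with treatment. CDH1 fell at 500 nM from 188, 199 and 199.9 to 118, 135 and 151 (log2 fold change -0.54, adjusted p = 0.0118), CD44 fell from a mean of 12154 to 9336 (-0.38, 1.36e-06) and AXL rose (0.22, 5.86e-04), while VIM, CAV1, PGR and EPCAM did not pass. CDH1 was also lower at 0.5 nM (-0.79, adjusted p = 0.0119) and 5 nM (-0.66, 0.0192), and the part of these markers in the Rab changes was not tested. The Rab members together took 0.347% to 0.348% of the reads on genes in the DMSO libraries and 0.320% to 0.329% in the 500 nM libraries, and the ranges of these 2 groups did not overlap. The share was 0.341% to 0.3455% at 0.5 nM, 0.3401% to 0.3431% at 5 nM and 0.3262% to 0.3373% at 50 nM. Each of these ranges also lay below all DMSO libraries. In bulk RNA a lower share of reads cannot be told apart from a change in the other RNA of the cell, nor fewer expressing cells from less RNA per cell.

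Before treatment the members covered a wide range of levels. Per kilobase of exon, the DMSO level was highest for RAB1B, which serves transport from the endoplasmic reticulum (ER) to the Golgi, at 829.5 ± 24.9 normalized counts per kb (SD, n = 3). RAB10, a Rab of exocytic carriers, followed at 800.6 ± 15.2, and the ranges of these 2 genes overlapped. RAB32, found on lysosome-related organelles and mitochondria, came next with 773.8 ± 26.8, ahead of RAB1A, RAB34 and RAB35. The lowest member was RAB40A with 4.12 ± 0.292, which placed the top of the order 201.1-fold above its end. The 5 highest members held 33.0% of the summed level per kb. Of 48 neighbouring pairs in this order, 20 had ranges over the 3 DMSO libraries that did not overlap, so most neighbours did not differ beyond their spread. The length counts all annotated exons of a gene, so the order per kb also depends on the annotation and on how reads shared with other genes were counted. By normalized counts alone the highest member was RAB7A, with a DMSO mean of 4015, and it stood at place 8 per kb.

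At 500 nM, 13 of the 49 Rab genes fell and none rose with all 15 libraries in the fit. A rise of 1 member, RAB30, passed without 0.5 nM replicate 2, without DMSO replicate 2, with only the libraries of these 2 groups in the fit and at an adjusted p under 0.1. RAB39A, under the minimum mean and so not a member, was higher at 500 nM without a filter and is described in a closing section. Of the 49 members, 10 had DMSO means under 100, and in 10 over 20% of the exonic sequence also belongs to another gene. Falls were found among the Rabs of the early endosome (RAB31, RAB20, RAB5B and RAB5A), of secretory granules (RAB3D, RAB27B and RAB37) and of ER and Golgi transport (RAB43, RAB6A, RAB1A and RAB2A), together with RAB11A of recycling endosomes and RAB12. Their sizes were modest, from 64.6% of the DMSO mean left for RAB43 to 91.0% left for RAB11A. The call was an adjusted p under 0.05 in limma, fitted on log2(normalized count + 1) of all 13561 genes with Benjamini-Hochberg adjustment, and every fold change below is on this scale. Against the background, 26.5% of the members were called at this dose and 17.8% of all genes tested. Calls went down for 26.5% of members against 10.1% of all genes, and up for 0% of members against 7.69%. The median log2 fold change of the members was -0.12, with 37 below 0 and 12 above, and that of all genes was 0.00. For 23 members the 500 nM and DMSO libraries did not overlap, where 38.5% of all genes tested had this property. At an unadjusted p under 0.05, 19 members were lower and 1, RAB30, was higher. The share of all genes at an unadjusted p was not counted, here or below, so such counts stand without a background. The count was 13 in edgeR and 12 in DESeq2 on the recovered reads, each with 0 rises, and 8 without 500 nM replicate 1, which ended the calls of RAB43, RAB37, RAB12, RAB2A and RAB11A.

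**Figure D1:**
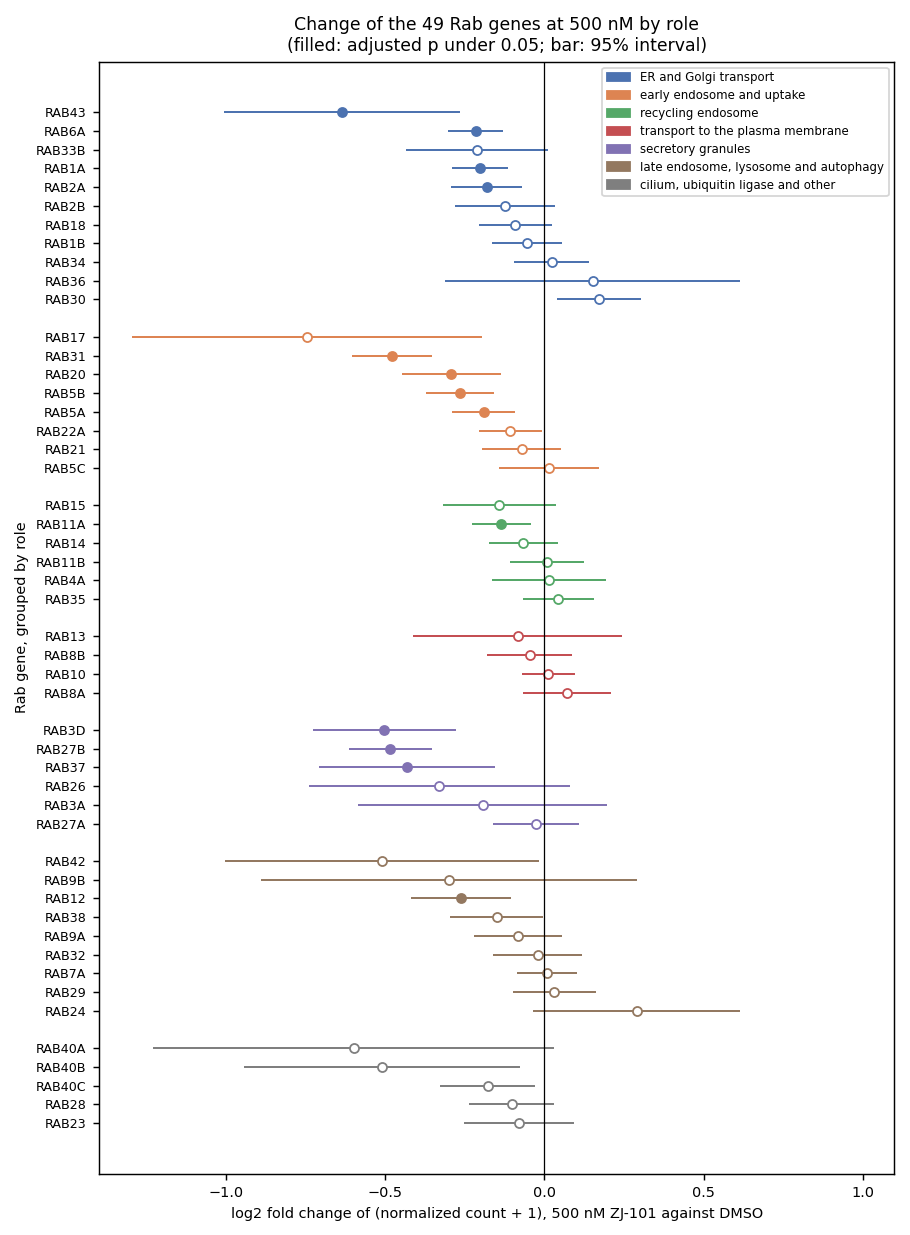
Log2 fold change of each of the 49 Rab genes at 500 nM ZJ-101 against DMSO (horizontal axis), grouped by role (vertical axis and colour). Points are limma estimates from 3 libraries per group, bars their 95% intervals, and filled points have an adjusted p under 0.05. All 13 filled points lie left of 0.

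The role groups were written from general knowledge, with earlier results of these data known, and differ in how many members they hold. Of all genes tested, 10.1% fell at 500 nM, and the median log2 fold change was 0.003. Of 8 Rabs of the early endosome and uptake, 4 fell, with a median of -0.23. Of 6 tested Rabs of secretory granules, 3 fell, with a median of -0.38. Of 11 tested Rabs of ER and Golgi transport, 4 fell, with a median of -0.12. A single member fell among the 6 tested recycling Rabs (median -0.03) and among the 9 tested Rabs of late endosome, lysosome and autophagy (median -0.08). None of the 4 Rabs of transport to the plasma membrane (median -0.02) and none of the 5 tested members of the group with RAB23, RAB28 and the RAB40 genes (median -0.18) passed the test. At an unadjusted p under 0.05 these last 2 groups held 0 and 2 genes (RAB40B and RAB40C, named after their values were seen), and edgeR and DESeq2 called 0 in each. The estimates of the 36 members that did not pass ran from -0.74 for RAB17 to 0.29 for RAB24. Differences between role groups were not tested.

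Among the early endosome Rabs, RAB31, which acts between the trans-Golgi network and endosomes, had normalized counts of 2098, 1991 and 2027 in DMSO and 1415, 1448 and 1524 at 500 nM. Every library at 500 nM lay below every DMSO library (log2 fold change -0.48, SE 0.06, adjusted p = 7.20e-06). RAB5B, one of the RAB5 genes that drive fusion of early endosomes, had 1679, 1656 and 1645 in DMSO and 1401, 1304 and 1437 at 500 nM. Its groups were also apart (log2 fold change -0.27, SE 0.05, adjusted p = 7.34e-04). Its relative RAB5A had 1292, 1321 and 1333 in DMSO and 1144, 1109.5 and 1204 at 500 nM, again without overlap (log2 fold change -0.19, SE 0.05, adjusted p = 0.00547). RAB20, linked to phagosomes and endosomes, had 217, 222 and 209 in DMSO and 184, 171 and 173 at 500 nM and fell as well (log2 fold change -0.29, SE 0.07, adjusted p = 0.00829), although DESeq2 gave it an adjusted p of 0.0584. RAB5C did not pass, with 735, 701 and 779 in DMSO and 745, 753 and 737 at 500 nM and an interval of the log2 fold change of -0.14 to 0.17. Of the exon bases of RAB5C, 30.45% lie in other genes, so reads there may belong to either or be missing from the counts. RAB17, known from polarised epithelia, was measured at few counts, 59.6, 65.8 and 44.6 in DMSO and 24.5, 39.4 and 37.1 at 500 nM. It had the lowest estimate of all members, with libraries that did not overlap, and missed the threshold (log2 fold change -0.74, SE 0.26, adjusted p = 0.0564), but passed when DMSO replicate 3, 0.5 nM replicate 2 or 50 nM replicate 1 or 2 was left out and with only the libraries of these 2 groups in the fit.

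The promoters of some of these genes share short letters, shown here for 2 Rabs that fell and 2 that did not pass. Promoter sequences from RefSeq on GRCh38.p14, 250 bases before to 50 after a gene start, were found for 39 of the 49 members and for 8 of the 13 that fell. They were searched on both strands for the E-box CACGTG, the core of the lysosomal CLEAR element TCACGTGA (which holds an E-box), the Golgi stress element ACGTGGC, the unfolded protein response element TGACGTGG and the heat shock half-pair GAANNTTC. The sequences run 5′ to 3′ on the strand of the gene, and capitals mark the letters matched. They lie at chr18:9708051-9708350 (plus strand) for RAB31, chr5:177303670-177303969 (minus strand) for RAB24, chr3:19946847-19947146 (plus strand) for RAB5A and chr12:71754613-71754912 (plus strand) for RAB21.
RAB31: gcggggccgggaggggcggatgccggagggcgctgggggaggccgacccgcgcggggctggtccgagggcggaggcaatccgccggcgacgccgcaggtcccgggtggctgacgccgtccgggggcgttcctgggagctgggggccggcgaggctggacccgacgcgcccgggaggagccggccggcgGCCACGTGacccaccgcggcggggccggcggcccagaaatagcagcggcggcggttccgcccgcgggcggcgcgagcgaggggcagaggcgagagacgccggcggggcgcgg
RAB24: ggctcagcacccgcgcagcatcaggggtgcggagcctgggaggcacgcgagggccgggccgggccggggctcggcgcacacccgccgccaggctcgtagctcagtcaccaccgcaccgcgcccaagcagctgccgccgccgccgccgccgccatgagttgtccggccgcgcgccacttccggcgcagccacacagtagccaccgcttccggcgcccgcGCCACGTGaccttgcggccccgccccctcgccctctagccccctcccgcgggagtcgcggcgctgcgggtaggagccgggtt
RAB5A: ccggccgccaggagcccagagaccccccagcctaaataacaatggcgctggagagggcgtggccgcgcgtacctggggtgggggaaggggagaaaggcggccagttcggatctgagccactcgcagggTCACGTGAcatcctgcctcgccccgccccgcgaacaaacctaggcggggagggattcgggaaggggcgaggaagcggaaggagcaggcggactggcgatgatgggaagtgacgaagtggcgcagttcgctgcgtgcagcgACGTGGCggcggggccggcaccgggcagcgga
RAB21: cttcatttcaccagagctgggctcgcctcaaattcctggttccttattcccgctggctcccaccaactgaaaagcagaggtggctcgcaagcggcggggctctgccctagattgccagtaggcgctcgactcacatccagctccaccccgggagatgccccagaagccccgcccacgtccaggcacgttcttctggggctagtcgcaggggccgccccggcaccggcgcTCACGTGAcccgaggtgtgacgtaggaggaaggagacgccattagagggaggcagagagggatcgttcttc

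RAB31 and RAB24 both hold GCCACGTG, an E-box that overlaps a Golgi stress element on the other strand, beginning 62 bases before the start of RAB31 and 32 bases before that of RAB24. RAB31 fell at 500 nM, while RAB24, linked to autophagy, had 53.8, 59.7 and 74.1 in DMSO and 78.5, 68.8 and 81.3 at 500 nM and did not pass (log2 fold change 0.29, SE 0.15, adjusted p = 0.226). Of the exon bases of RAB24, 44.8% lie in MXD3. RAB5A and RAB21 both hold the CLEAR core, 122 and 21 bases before their starts, and RAB5A has a Golgi stress element just after its start. RAB5A fell, and RAB21, a Rab of integrin uptake, did not pass (log2 fold change -0.07, SE 0.06, adjusted p = 0.451). Counted by gene, an E-box was found for 15.4% of the 39 members with a promoter and for 12.4% of 10029 tested genes with one. The Golgi stress element was found for 7.69% and 5.64%, the CLEAR core for 5.13% and 2.27%, and the heat shock half-pair for 2.56% and 6.57%. The unfolded protein response element was found for 0 members and 1.20% of tested genes. Counted by promoter, the shares in 58 member promoters and in 35116 promoters in all were 10.3% and 7.26% for the E-box, 5.17% and 3.22% for the Golgi stress element, 3.45% and 0.980% for the CLEAR core, 1.72% and 6.77% for the heat shock half-pair and 0% and 0.729% for the unfolded protein response element. Of the 8 fallen members with a promoter, 2 held any of these letters, as did 5 of the 31 other members with one. The median GC content was 64.7% in member promoters and 64.7% in promoters of the genes tested, and 58.7% in all promoters. These matches are letters in a window and were not tested for binding.

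Among the secretory granule Rabs, RAB27B had normalized counts of 1270.4, 1239 and 1282 in DMSO and 839.8, 1008 and 869.9 at 500 nM. RAB27B docks secretory vesicles and exosome-bearing endosomes at the plasma membrane, and its 3 treated libraries lay below all DMSO libraries (log2 fold change -0.48, SE 0.06, adjusted p = 1.10e-05). RAB3D, a Rab of regulated exocytosis, had 148, 143 and 129.9 in DMSO and 103, 92.0 and 101 at 500 nM and fell without overlap (log2 fold change -0.50, SE 0.11, adjusted p = 0.00217). RAB37, also of secretory granules, had 142, 146 and 119 in DMSO and 95.8, 102 and 102 at 500 nM. It was nearer to the threshold (log2 fold change -0.43, SE 0.13, adjusted p = 0.0263) and lost the call when any library of these 2 groups other than DMSO replicate 3 was left out, with an adjusted p of up to 0.112. The close relative of RAB27B, RAB27A, had 661, 714 and 730.5 in DMSO and 698, 662 and 706 at 500 nM, with groups that overlap and an interval of -0.16 to 0.10. RAB26 and RAB3A had estimates of -0.33 and -0.19 and did not pass. In the annotation of GENCODE release 44, 25.1% of the exon bases of RAB3D and 21.7% of those of RAB37 lie in another gene, so reads there may belong to either or be missing from the counts.

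Among the Rabs of ER and Golgi transport, RAB6A, which serves retrograde and exocytic carriers at the Golgi, had 2312, 2419 and 2359.8 in DMSO and 2032, 2040.0 and 2029.6 at 500 nM. The 500 nM libraries were close to each other and below all DMSO libraries (log2 fold change -0.22, SE 0.04, adjusted p = 6.94e-04). RAB1A, required for transport from the ER to the Golgi, had 2369, 2251 and 2347 in DMSO and 1985, 2025 and 2043 at 500 nM, without overlap (log2 fold change -0.20, SE 0.04, adjusted p = 0.00155). RAB1B, which does the same work, had 1669, 1573 and 1610.1 in DMSO and 1639, 1514 and 1521 at 500 nM, with overlap and an interval of -0.16 to 0.05. RAB2A, which tethers membranes between ER and Golgi and is named here after its values were seen, had 1546, 1477 and 1443 in DMSO and 1272, 1302 and 1363 at 500 nM (log2 fold change -0.18, SE 0.05, adjusted p = 0.018), and leaving out DMSO replicate 1 or 500 nM replicate 1 or 2 ended its call, with an adjusted p of up to 0.0937. RAB2B did not pass, with 378, 309.6 and 362 in DMSO and 307, 335 and 319 at 500 nM. RAB43, a Rab of Golgi traffic, was the largest fall that passed, at few counts, 59.6, 59.7 and 64.9 in DMSO and 31.6, 48.5 and 38.9 at 500 nM. Its groups did not overlap (log2 fold change -0.64, SE 0.17, adjusted p = 0.0151), and leaving out DMSO replicate 3 or 500 nM replicate 1 ended its call, with an adjusted p of up to 0.0918. Of its exon bases, 79.3% lie in the read-through gene ISY1-RAB43, listed at 0 in all libraries, and reads of the 2 genes cannot be told apart there. For RAB1A, 22.9% of exon bases face CEP68 on the opposite strand, and for RAB1B 43.8% face other genes there. RAB30, a Golgi Rab, was the highest of this group, with 586, 635 and 570.2 in DMSO and 658, 668 and 691 at 500 nM, and missed the threshold (log2 fold change 0.17, SE 0.06, adjusted p = 0.0628).

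RAB11A, the main Rab of the recycling endosome, had normalized counts of 2139, 2143 and 2226 in DMSO and 1990.5, 1965 and 1969 at 500 nM. The fall was small and the groups were apart (log2 fold change -0.14, SE 0.04, adjusted p = 0.0339), and leaving out any 1 of these 6 libraries ended the call, with an adjusted p of up to 0.131. RAB11B had 1464, 1436 and 1412 in DMSO and 1415, 1489.8 and 1432 at 500 nM, with overlap and an interval of -0.10 to 0.12. RAB12, which directs the transferrin receptor to degradation, had 493, 506 and 522 in DMSO and 414, 428 and 427 at 500 nM. It fell without overlap (log2 fold change -0.26, SE 0.07, adjusted p = 0.0166), and not when DMSO replicate 3 or 500 nM replicate 1 was left out, with an adjusted p of up to 0.0692. The late endosome Rab RAB7A had an interval of -0.08 to 0.10, and the exocytic Rabs RAB10 and RAB8A had -0.07 to 0.09 and -0.07 to 0.21. Of the 36 members that did not pass at 500 nM, 19 had a 95% interval within 0.25 of 0 on the log2 scale, and the others, many of them at few counts, were known less precisely.

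**Figure D2:**
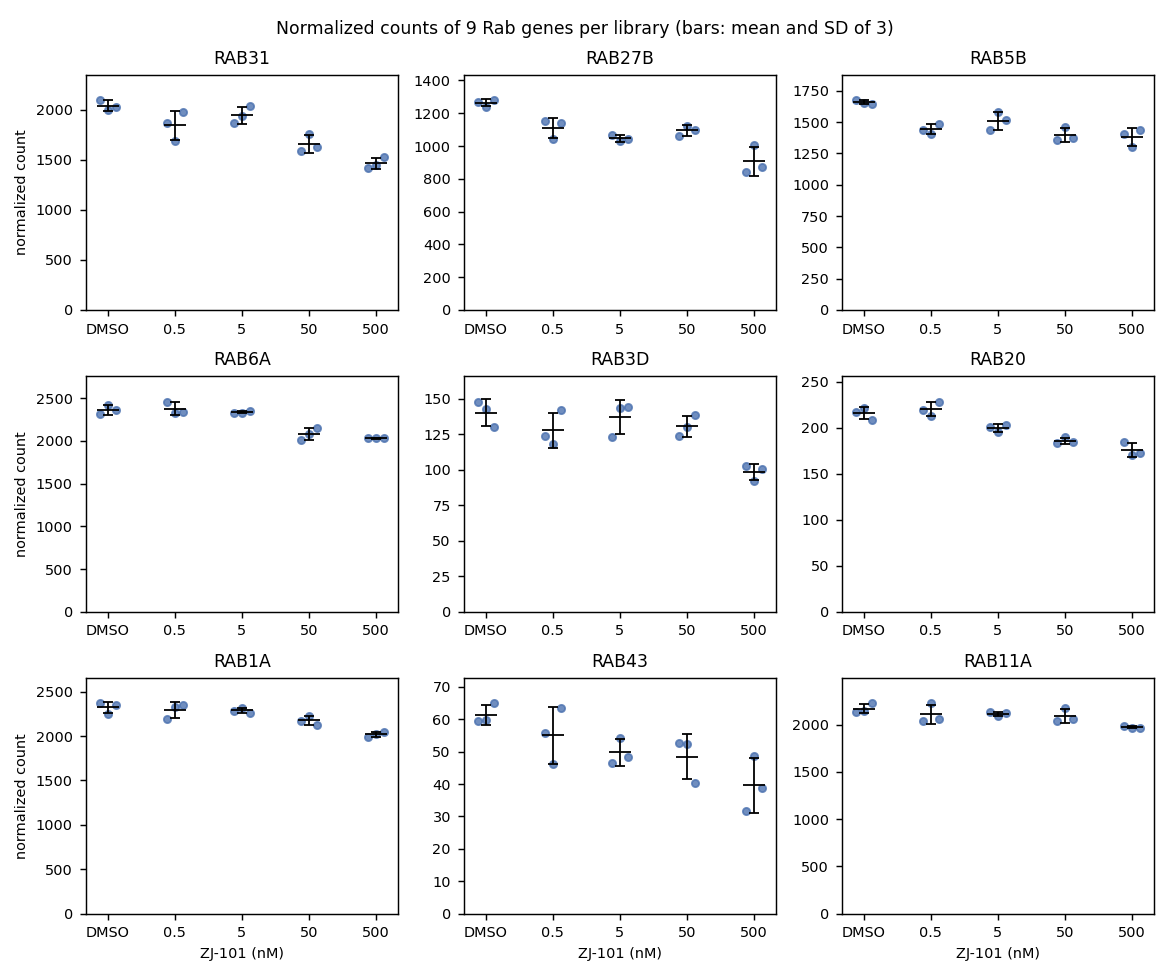
Normalized counts (vertical axes, starting at 0) of 9 Rab genes that fell at 500 nM, in each of 3 libraries per group, by ZJ-101 dose in nM (horizontal axes). Points are libraries, and bars give the mean and SD of 3. In all 9 panels the 500 nM points lie below the DMSO points.

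At lower doses few Rab genes passed the test. The comparisons with DMSO share the same 3 control libraries, so they are given side by side. At 0.5 nM, 0 of 49 members passed in limma, against 1.17% of all genes, and 8 had an unadjusted p under 0.05. edgeR called 0 and DESeq2 called 1, RAB5B, which had 1435, 1407 and 1485 and in limma an adjusted p of 0.0542. RAB5B was also the member called when 0.5 nM replicate 3 or 50 nM replicate 2 was left out.

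At 5 nM, 1 member passed (2.04% against 2.18% of all genes, and 1.71% of all genes downward). RAB27B had 1069.7, 1029 and 1042, all below DMSO (log2 fold change -0.27, SE 0.06, adjusted p = 0.0217). Leaving out any 1 of the 6 libraries of these 2 groups ended this call, which left 0. At an unadjusted p under 0.05, 4 members were lower and 1 was higher at 5 nM. At 50 nM, 3 members fell (6.12% against 6% of all genes, and 3.71% of all genes downward). Of the 49 members, 38 had an estimate below 0 at this dose, with a median of -0.06 against -0.002 for all genes. At an unadjusted p under 0.05, 10 members were lower and 0 higher. RAB31 had 1583, 1753 and 1624 (log2 fold change -0.30, SE 0.06, adjusted p = 0.00231). RAB5B had 1359, 1459 and 1371 (log2 fold change -0.25, SE 0.05, adjusted p = 0.00323). RAB6A had 2016, 2085 and 2157 (log2 fold change -0.18, SE 0.04, adjusted p = 0.00777), and lost the call without DMSO replicate 2 or 50 nM replicate 1. In each of these genes the libraries of the dose lay below all DMSO libraries. RAB27B had 1060.5, 1124 and 1099.8 at 50 nM, also below all DMSO libraries, and just missed the threshold in limma (log2 fold change -0.21, SE 0.06, adjusted p = 0.0505). It was called at this dose in edgeR and DESeq2, which each gave 4 members.

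Between neighbouring doses, 0 members passed from 0.5 to 5 nM in limma, where 0.118% of all genes did. At an unadjusted p under 0.05 there were 3 (RAB12, RAB15 and RAB5A, of which RAB15 was named after its values were seen), and edgeR and DESeq2 called 0. From 5 to 50 nM, RAB31 (log2 fold change -0.23, adjusted p = 0.0212), RAB22A (-0.20, 0.0139) and RAB6A (-0.17, 0.0189) fell, 6.12% of members against 5.01% of all genes, and 2.39% of all genes downward. Leaving out 5 nM replicate 2 or 3 or 50 nM replicate 1 left 0 of them, RAB31 also lost its call without 50 nM replicate 3, and RAB6A without 5 nM replicate 1 or without a filter on low counts. RAB22A, an early endosome Rab, had 1585, 1619.6 and 1599.9 in DMSO, 1709, 1729 and 1745 at 0.5 nM, 1619.6, 1725 and 1762 at 5 nM, 1414, 1479 and 1560.4 at 50 nM and 1493, 1513 and 1453 at 500 nM. Its 0.5 nM libraries were above and its 50 and 500 nM libraries below those of DMSO, and none of its comparisons with DMSO passed in the main fit. At 500 nM it passed in limma with only the 500 nM and DMSO libraries in the fit (adjusted p = 0.0458). From 50 to 500 nM, RAB27B alone passed (2.04% against 2.28%, and 1.8% downward), with 1060.5, 1124 and 1099.8 and then 839.8, 1008 and 869.9 (log2 fold change -0.28, adjusted p = 0.0183). This count was 0 without 50 nM replicate 2 or 3 or 500 nM replicate 1 or 3, 3 without 0.5 nM replicate 2 and 2 without 0.5 nM replicate 3.

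A slope per rank of dose, with 1 step for each dose from DMSO upward, called 12 members (24.5% against 17.6% of all genes, of which 9.33% fell and 8.23% rose). Of these, 11 fell, RAB43, RAB31, RAB27B, RAB3D, RAB20, RAB12, RAB6A, RAB5B, RAB1A, RAB2A and RAB22A. RAB30 rose, by 0.05 per step (adjusted p = 0.0475). The call of RAB30 and that of RAB22A (adjusted p = 0.0475) ended without a filter on low counts, and each was lost in most of the fits that left out 1 of the 15 libraries, with an adjusted p of up to 0.156 for RAB30 and 0.127 for RAB22A. In edgeR the slope call of RAB22A was also lost, while in DESeq2 no slope call was lost and RAB11A was gained. RAB3D lost its slope call without DMSO replicate 1 or any 500 nM library. With all DMSO libraries left out the slope called 10 members, with RAB38 and RAB9A gained and RAB12, RAB3D, RAB43 and RAB5B lost. Of the 13 members that fell at 500 nM, 9 had an estimate below 0 at all 4 doses, and in RAB1A and RAB43 the mean was lower at each higher dose.

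**Figure D3:**
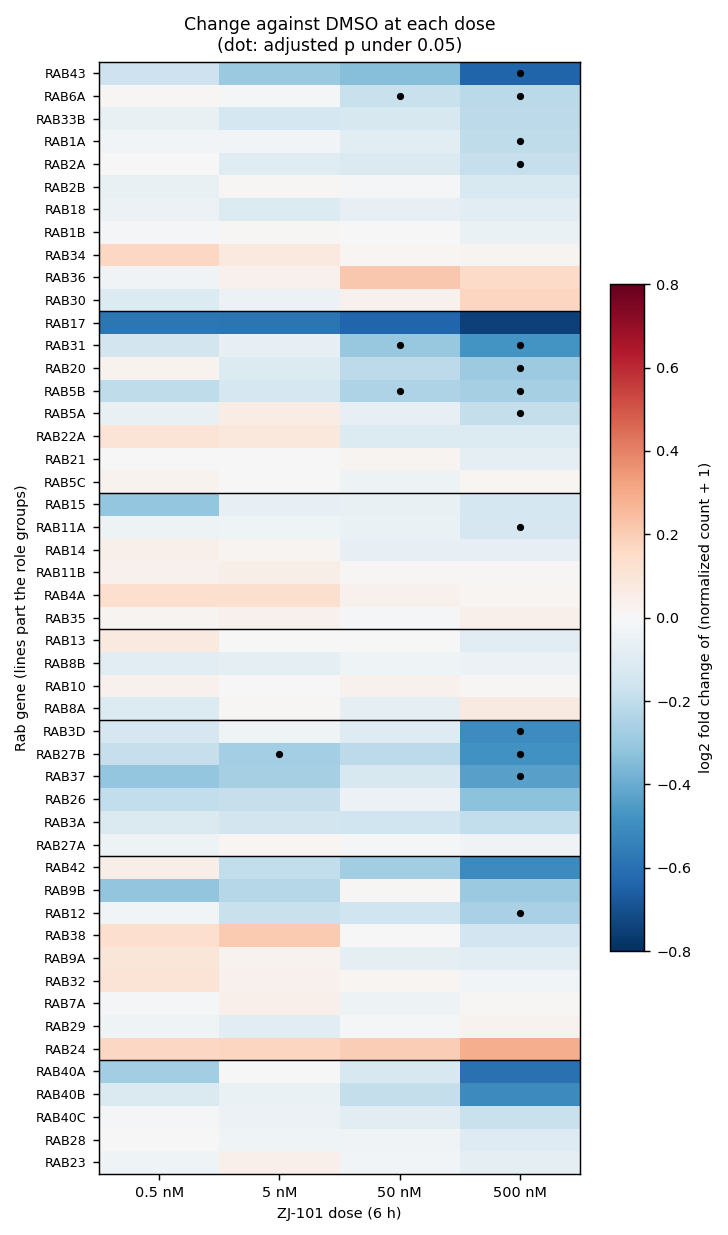
Log2 fold change against DMSO of each Rab gene (rows, parted by role) at the 4 ZJ-101 doses (columns), with blue for lower and red for higher and dots for an adjusted p under 0.05. There is no dot at 0.5 nM, and 1, 3 and 13 dots at 5, 50 and 500 nM.

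Close relatives were set against each other through the log2 ratio of their normalized counts within a library. The 6 libraries at 50 and 500 nM were compared with the 6 at 0.5 and 5 nM by an exact two-sided permutation test over 924 splits, in 13 pairs with both genes tested. None of the 13 pairs passed after Benjamini-Hochberg adjustment, and 2 had an unadjusted p under 0.05. RAB1A over RAB1B had a log2 ratio of 0.50 ± 0.04 at the lower doses and 0.40 ± 0.08 at the higher doses (SD, n = 6), a difference of -0.10 with overlap (exact permutation p = 0.0108, adjusted p = 0.141). Without 50 nM replicate 3 this pair passed, with an adjusted p of 0.0281. RAB32 over RAB38, both on lysosome-related organelles, had 1.64 ± 0.14 and 1.81 ± 0.11 (exact permutation p = 0.0433, adjusted p = 0.281). RAB27A over RAB27B had -0.63 ± 0.10 and -0.52 ± 0.20 (exact permutation p = 0.262), beside -0.85 ± 0.08 in DMSO and -0.39 ± 0.19 at 500 nM (SD, n = 3). RAB22A over RAB31 had -0.35 ± 0.05 in DMSO and 0.02 ± 0.08 at 500 nM. That split leaves DMSO out, and 3 libraries at 500 nM against 3 of DMSO cannot go below an exact p of 0.1, so neither permutation test bears on the change from DMSO to 500 nM. A limma fit on the 13 ratios with all 5 groups, added after the data were seen and adjusted over the 13 pairs, passed for 3 of them. The RAB27A ratio to RAB27B was 0.46 higher at 500 nM than in DMSO (SE 0.09, 95% interval 0.27 to 0.65, adjusted p = 0.00129). The RAB22A ratio to RAB31 was 0.37 higher (SE 0.07, 95% interval 0.23 to 0.52, adjusted p = 0.00129). Both passed also without any 1 of the 6 libraries, with an adjusted p of up to 0.00939, so RAB27B and RAB31 were lowered relative to these relatives. RAB5B over RAB5C changed by -0.28 (SE 0.08, adjusted p = 0.0203), and did not pass without DMSO replicate 1 or 2 or 500 nM replicate 2, with an adjusted p of up to 0.0786. RAB1A over RAB1B (adjusted p = 0.0578) and RAB11A over RAB11B (adjusted p = 0.063) missed the threshold.

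**Figure D4:**
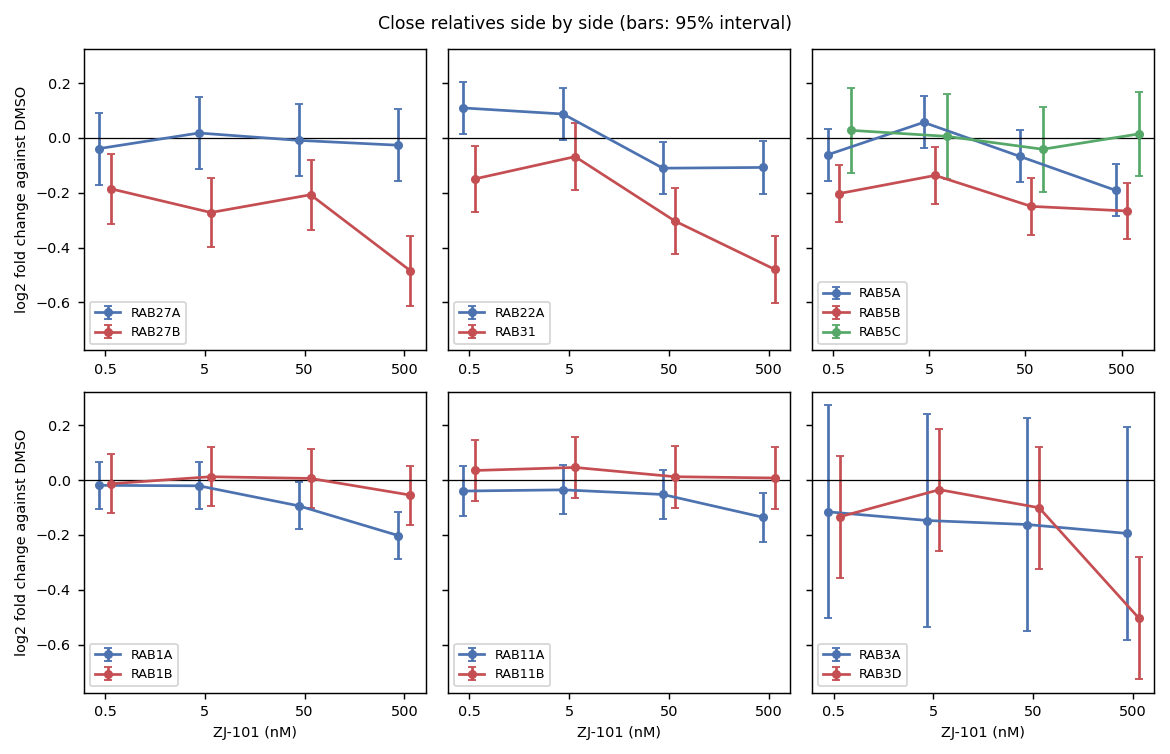
Log2 fold change against DMSO (vertical axis) of close relatives at 4 ZJ-101 doses in nM (horizontal axis), 1 panel per subfamily. Points are limma estimates and bars their 95% intervals. At 500 nM RAB27B lies at -0.48 and RAB27A at -0.03, and RAB31 at -0.48 and RAB22A at -0.11.

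Few of the genes that run the Rab cycle passed the test with all 15 libraries in the fit. Of 74 regulators tested (of 78 listed), 2 rose and 5 fell at 500 nM, or 9.46% against 17.8% of all genes. At an unadjusted p under 0.05 there were 21, of which 9 were higher and 12 lower, again without a count over all genes. RIN2, a GEF of the RAB5 group, had 2074, 1986 and 1974 in DMSO and 1528, 1549 and 1439.6 at 500 nM (log2 fold change -0.42, SE 0.05, adjusted p = 2.13e-06). It was also lower at 50 nM (log2 fold change -0.29, SE 0.05, adjusted p = 2.74e-04). RIN1, another GEF of the RAB5 group, had 795, 700.1 and 734 in DMSO and 818, 861 and 887 at 500 nM (log2 fold change 0.20, SE 0.07, adjusted p = 0.041). RIN3, also of these GEFs, had 1035, 983 and 976 in DMSO and 1199.6, 1074 and 1141 at 500 nM (log2 fold change 0.19, SE 0.06, adjusted p = 0.0473). In each of these 3 relatives the 500 nM libraries lay apart from DMSO, below it for RIN2 and above it for RIN1 and RIN3, and the last 2 were close to the threshold. The falling genes of the TBC family, which holds most of the Rab GAPs, were TBC1D8B (157, 185 and 195 in DMSO and 160.0, 116 and 141 at 500 nM, with overlap, log2 fold change -0.37, SE 0.12, adjusted p = 0.0343), TBC1D2B (log2 fold change -0.30, SE 0.09, adjusted p = 0.0207), TBC1D8 (log2 fold change -0.26, SE 0.08, adjusted p = 0.024) and, named after its values were seen, TBC1D23 (log2 fold change -0.19, SE 0.05, adjusted p = 0.0201). The count of 7 regulators was 1 without DMSO replicate 2, 2 without DMSO replicate 3, 4 without 500 nM replicate 2, 3 without 500 nM replicate 3 and 15 without 0.5 nM replicate 2. The share of all genes called in these fits was not counted, so the low share of regulators holds for the main fit only. Only the call of RIN2, of these 7, remained each time a library was left out.

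None of the 8 genes of lipid addition and membrane extraction passed at 500 nM in limma, 1, CHML, had an unadjusted p under 0.05, edgeR called this 1 and DESeq2 0. In limma the adjusted p was 0.7 for GDI2, 0.724 for CHM and 0.0509 for CHML. GDI2 had 6185, 5930.2 and 5972 in DMSO and 5891, 5878 and 5963 at 500 nM, and its interval of -0.11 to 0.06 was narrow. CHML had 899, 985 and 972 in DMSO and 1059.9, 1086 and 1034 at 500 nM, without overlap, and passed in limma by the slope (0.04 per step, adjusted p = 0.0465).

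Of 36 effectors tested (of 41 listed), 2 fell and none rose at 500 nM (5.56% against 17.8% of all genes), with 3 higher at an unadjusted p under 0.05 (RABEP1, ANKFY1 and RPH3AL, named after their values were seen) and 0 rises in edgeR or DESeq2. SYTL2, which binds RAB27 proteins on secretory vesicles, had 437, 449 and 457 in DMSO, 321, 277 and 335 at 0.5 nM, 419.5, 348 and 398 at 5 nM, 343, 355 and 344 at 50 nM and 321, 328 and 306 at 500 nM. All treated libraries lay below all DMSO libraries. It fell at 0.5 nM (log2 fold change -0.53, SE 0.08, adjusted p = 0.00339), at 50 nM (log2 fold change -0.37, SE 0.08, adjusted p = 0.00638) and at 500 nM (log2 fold change -0.49, SE 0.08, adjusted p = 1.82e-04), while 5 nM did not pass (log2 fold change -0.21, SE 0.08, adjusted p = 0.228). The call of SYTL2 at 0.5 nM was lost in limma with only the 0.5 nM and DMSO libraries in the fit (adjusted p = 0.0592). It remained when any 1 of the 15 libraries was left out. OPTN, an autophagy receptor that binds RAB8, had 2326, 2461 and 2458 in DMSO and 2003, 2000.5 and 2177 at 500 nM and fell without overlap (log2 fold change -0.23, SE 0.05, adjusted p = 0.00239). The count of effectors was 6 without 0.5 nM replicate 2, of which 4 fell and 2 rose. It was also 6 with only the 500 nM and DMSO libraries in the fit. The share of all genes called in these fits was not counted, so the low share of effectors holds for the main fit only.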

How the data were processed

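The authors selected poly-A RNA, mapped reads with HISAT2 on hg38 and obtained gene counts from htseq-count on a Galaxy server. They deposited normalized counts (signal values, reads divided by DESeq2 size factors). Strandedness, the rule for reads that overlap 2 genes, tool versions and the GENCODE release are not given in the sources used here. Whole reads were recovered for 100.0% of values within a tolerance of 0.001, with size factors of 0.916 to 1.13. Within groups, replicates differed by more than sampling noise (chi-square per degree of freedom 2.04 to 16.6). The dishes are described as biological replicates.

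The test was limma 3.58.1 (R 4.3.3, variance trend) on log2(value + 1) for genes with a mean of at least 10, with all 5 groups fitted together, and calls at a Benjamini-Hochberg adjusted p under 0.05. It was also run on simulated counts with the same dispersion for every gene and no outlying library. That run does not show how the test behaves with the spread between replicates seen here. edgeR 4.0.16 and DESeq2 1.42.0 on recovered reads, other pseudocounts, filters, scalings and thresholds, a replicate block and omitted libraries were alternatives. Members, role groups, regulators and effectors were chosen with earlier results of these data known. Named are up to 10 falls and 10 rises at 500 nM, up to 3 per direction at lower doses, RAB11A, RAB11B, their relatives, and up to 4 rises and 4 falls of regulators and of effectors beside GDI2, CHM and CHML; 1 further gene of the rule is not reported here. Gene positions and lengths are from GENCODE 44. Protein sequences were not used here.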

Additional observations from a re-analysis of the deposited data

Results flagged for a closer look

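Of the 15 Rab symbols under the minimum mean of 10, which no comparison above used, 3 were at 0 in every library. Another 3 had all 500 nM libraries above all DMSO libraries, and only rises were looked for. The libraries of these 2 groups were apart, in either direction, for 38.5% of all genes tested. The ratios below come from the libraries that picked these symbols, so their intervals do not test this choice. RAB39A, a Rab of late endosomes and phagosomes, had 63 reads over the 3 libraries at 500 nM and 11 over the 3 DMSO libraries, a ratio of reads per library size of 5.58 (95% exact Poisson interval 2.92 to 11.7, counting error only). Its normalized counts were 19.2 to 22.1 at 500 nM and 2.02 to 6.09 in DMSO, and without a filter limma gave a log2 fold change of 2.28 with an adjusted p of 0.00907. RAB6B, the relative of RAB6A, had 37 and 20 reads, a ratio of 1.80 (1.02 to 3.28), and without a filter an adjusted p of 0.426. RAB41 had 24 and 14 reads, a ratio of 1.67 (0.830 to 3.49), and an adjusted p of 0.639.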

How the results depend on the processing

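All 13 falls at 500 nM remained with pseudocounts of 0.5 or 5, a mean of at least 50, TMM scaling, the same total per library, edgeR and the replicate block, and 12 of them remained without a filter (RAB11A lost) and in DESeq2 (RAB20 lost). When the size of the log2 fold change also had to reach 0.5, the counts were 2 members at 500 nM and 0 at 5 nM, at 50 nM, between 5 and 50 nM and between 50 and 500 nM, beside 0 regulators and 0 effectors, and a slope of at least 0.1 left 2. At 0.5 nM the count was 1 with a mean of at least 50, 1 with the same total per library, 1 in DESeq2 and 2 at an adjusted p under 0.1. From 50 to 500 nM it was 2 with a mean of at least 50 and 2 at an adjusted p under 0.1. Regulators numbered 4 without a filter, 16 with only the libraries compared and 11 at an adjusted p under 0.1, and effectors 6 (2 of them rises) and 5 (1 rise) in the last 2 settings. Leaving out each library gave 0 to 1 members at 0.5 nM, 0 to 1 at 5 nM, 2 to 4 at 50 nM, 8 to 15 at 500 nM, 9 to 15 by the slope, 0 to 3 between 5 and 50 nM, 0 to 3 between 50 and 500 nM, 1 to 15 regulators, 2 to 6 effectors and 0 to 1 pairs. The limma fit of the ratios from DMSO to 500 nM passed 3 pairs, an alternative chosen after seeing the data. In fits that left out 1 library, the sign turned for 4 log2 fold changes from DMSO to 500 nM that never passed. Their ranges over these fits were -0.0143 to 0.023 for RAB11B, -0.0221 to 0.0539 for RAB5C, -0.0691 to 0.0028 for RAB27A and -0.1342 to 0.0361 for CHM. The cause of these shifts was not tested. Without RAB43 and RAB23, whose exons lie over 50% in another gene, 12 members fell at 500 nM, an alternative chosen after seeing the data. Samples of the same replicate number correlated at -0.0855 to 0.0961 in their deviations from the group means, and those of different numbers at -0.13 to 0.123. These values show no sign of pairing by number and cannot exclude it. With the replicate block 13 members were called at 500 nM and 10 by the slope (RAB22A and RAB30 lost), 6 regulators (RIN1 lost) and 3 effectors. Depth limits the 10 members with a DMSO mean under 100. Protein features were not run.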
